A study of Mus musculus with 8 samples.

Results

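The 33 genes described here mark or build the neural ectoderm, the layer of the embryo that becomes brain, spinal cord, eye and, at its border, neural crest. They were chosen by name and found by gene identifier, and all 33 were among the 47729 identifiers counted in mouse embryonic stem (ES) cells. Transcripts were counted by RNA sequencing in 8 libraries of E14TG2a ES cells, a line of the 129/Ola strain. There were 2 libraries in each of 4 groups, and all cells had been grown for 48 h in medium with 15% serum and the cytokine LIF. QT7 cells, by title, carry a single copy of TCF7 put back into cells that lack all TCF/LEF factors, the DNA-binding partners of beta-catenin in Wnt signalling. QT7L1 cells carry a single copy of TCF7L1 in the same way. QKO cells have both copies of TCF7, TCF7L1, TCF7L2 and LEF1 disrupted, and WT cells have all of these genes intact. The genotype labels of the QT7 and QT7L1 libraries each give the other factor as the one retained, so the names follow the titles. Each QT7, QT7L1 and QKO library is a different clone (A or B), and the 2 WT libraries are biological replicates with no clone named. Libraries are called by group and replicate number, as in QKO 2.

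Neural ectoderm arises when epiblast cells escape the signals that turn them into mesoderm or epidermis. Cells of the neural plate first switch on general neural factors such as Sox1 and the filament gene Nes, then regional homeobox genes that divide forebrain, midbrain and hindbrain, and later proneural factors that commit cells to become neurons. ES cells held in LIF are not neural, and most of these genes are low or silent in them. Wnt signalling is known to favour posterior over anterior neural identity in the embryo and to promote the neural crest.

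The libraries held 31573536 to 43362627 counts. All 12 ES cell markers were detected, with a summed level of 7436 and 8377 CPM (counts scaled to library size) in QT7, 8219 and 8575 CPM in QT7L1, 8436 and 7498 CPM in QKO and 7063 and 7323 CPM in WT. Tcf7 had 16.6 and 20.9 CPM in QT7, 10.1 and 12.7 CPM in QT7L1, 7.97 and 19.7 CPM in QKO, and 59.6 and 61.9 CPM in WT. Tcf7l1 had 27.4 and 22.4 CPM in QT7, 36.9 and 27.5 CPM in QT7L1, 38.3 and 39.1 CPM in QKO, and 73.6 and 68.8 CPM in WT. Both genes were below WT in every other library. Tcf7 in QT7 overlapped QKO, and Tcf7l1 in QT7L1 lay below QKO. The counts cover whole genes and the disrupted part is not given in the sources used here, so they do not settle which factor each line retains. Of 15 fibroblast markers, read because feeder cells express them, Lum was at 0 in all libraries and Dcn stayed under 10 counts. The 15 summed to 1369 and 1327 CPM in QT7, 1621 and 1330 CPM in QT7L1, 1119 and 1041 CPM in QKO, and 1287 and 1369 CPM in WT, mostly from Vim and Fn1, which ES cells also make.

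Most neural ectoderm genes were at the bottom of the range. Of the 33, 25 had counts in all 8 libraries, and 22 passed the filter on low counts and could be tested. Levels of different genes were compared as CPM per kilobase of exon. On that scale the mean over the 8 libraries was 52.5 for Tubb3, the neuronal beta-tubulin, 47.3 for Gbx2, a hindbrain homeobox gene that ES cells also use downstream of LIF, 18.3 for Hes1, a repressor that Notch signalling switches on, and 16.1 for Ngfr, a neurotrophin receptor of neural crest cells. These 4 stood at percentiles 94.1, 93.2, 82.0 and 79.8 of the 16515 genes tested, and every other tested neural ectoderm gene lay at or below percentile 54.6. Pou4f2, Ncam1, Neurod1 and Nes followed at 4.33, 4.04, 3.92 and 3.91 CPM per kilobase, and their replicate ranges overlap, so their order is not resolved. En2, Sox11 and Sox1, the earliest general factor of the neural plate, stood at 2.29, 1.91 and 1.35 CPM per kilobase, and Map2 at 0.510. Sox10, Msx1, Irx3, Hes5, En1, Lhx2, Pax6, Pou3f3, Pax2 and Sox9 lay between 0.265 and 0.0578 CPM per kilobase.

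**Figure D1:**
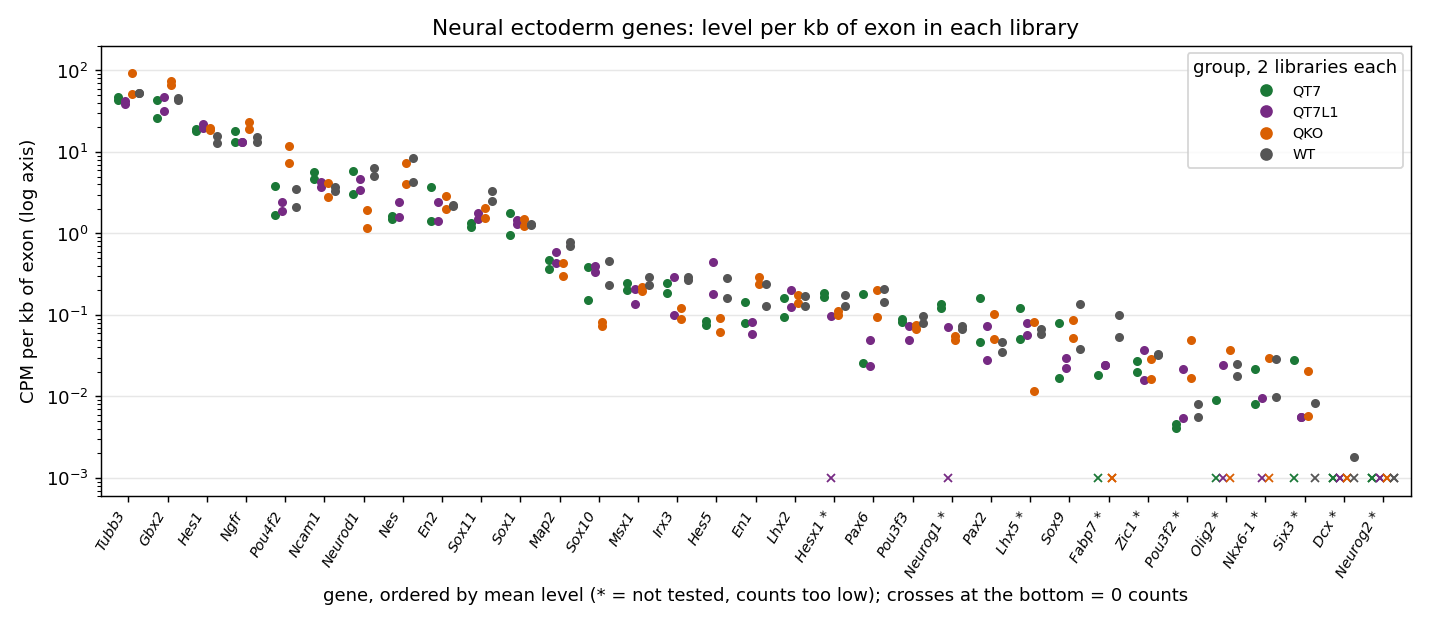
Level of each neural ectoderm gene in CPM per kilobase of exon (log axis) in each of the 8 libraries, by group, with genes in order of mean level and crosses for libraries with 0 counts. Tubb3, Gbx2, Hes1 and Ngfr lie above 10 in all libraries, and the starred genes had too few counts to test.

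The 11 genes that failed the filter never exceeded 13 counts in a library. They were the forebrain and eye factors Six3, Hesx1 and Lhx5, the dorsal factor Zic1, the radial glia fatty acid binding protein Fabp7, the POU factor Pou3f2, the proneural factors Neurog1 and Neurog2, the ventral progenitor factors Olig2 and Nkx6-1, and Dcx, a microtubule protein of migrating neurons. Neurog2 had 0 counts in all 8 libraries, which allows 3 counts in a library, or 0.0692 to 0.0950 CPM. Dcx had a single count, in WT 2. Lhx5 had 13 and 6 counts in QT7, 7 and 5 in QT7L1, 1 and 8 in QKO, and 5 and 8 in WT. Pou3f2 had 1 and 1 counts in QT7, 4 and 1 in QT7L1, 3 and 10 in QKO, and 1 and 2 in WT. The filter kept these 11 genes out of the tests. In the fit with no filter, 10 of them entered and none was called, the smallest adjusted p being 0.105, for Pou3f2 in QT7 against QKO (log2 fold change -2.77).

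The deleted factors recognise CTTTGA and the longer CTTTGAT, so the promoters were read for both motifs. RefSeq windows on GRCm38.p6, 300 bases from 250 before to 50 after the start, were matched for 27 of the 33 genes, with none for Sox9, En2, Sox10, Ncam1, Hes1 and Lhx5. CTTTGA on either strand was in 1 of the 27 (3.7%), that of Pou3f2, against 18.2% of 27025 genes with a window and 14.1% of the 11554 tested genes with one. CTTTGAT, which contains CTTTGA, was in the same 1 gene (3.7%), against 4.29% of all genes and 2.99% of tested genes. The median window of the neural ectoderm genes had 23 CG pairs, against 20 in tested genes and 7 in all genes, and a GC content of 65%, against 60.7% and 52.8%. The windows of Neurod1 and Pou4f2 are shown because these genes moved in opposite directions in 3 comparisons, with 26 and 18 CG pairs in capitals and neither motif. That of Nes, lower in both rescued lines, has 18 CG pairs in capitals. That of Pou3f2 is shown for its match, in capitals as the reverse complement of CTTTGAT, with its first base 182 bases before the start. The windows are chr2:79456587-79456886 (minus strand) for Neurod1, chr8:78436598-78436897 (minus) for Pou4f2, chr3:87970843-87971142 (plus) for Nes and chr4:22488317-22488616 (minus) for Pou3f2.
Neurod1: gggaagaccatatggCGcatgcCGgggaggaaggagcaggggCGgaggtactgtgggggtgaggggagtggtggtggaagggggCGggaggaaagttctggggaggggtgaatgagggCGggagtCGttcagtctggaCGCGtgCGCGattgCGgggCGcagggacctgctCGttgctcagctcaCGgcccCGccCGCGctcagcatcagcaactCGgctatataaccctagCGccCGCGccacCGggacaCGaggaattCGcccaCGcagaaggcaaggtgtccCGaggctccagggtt
Pou4f2: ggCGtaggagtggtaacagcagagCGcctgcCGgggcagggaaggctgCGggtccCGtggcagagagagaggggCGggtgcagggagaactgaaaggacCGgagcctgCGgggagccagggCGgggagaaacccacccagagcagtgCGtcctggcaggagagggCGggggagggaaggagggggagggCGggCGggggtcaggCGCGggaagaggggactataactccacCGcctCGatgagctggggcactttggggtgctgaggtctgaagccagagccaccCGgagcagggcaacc
Nes: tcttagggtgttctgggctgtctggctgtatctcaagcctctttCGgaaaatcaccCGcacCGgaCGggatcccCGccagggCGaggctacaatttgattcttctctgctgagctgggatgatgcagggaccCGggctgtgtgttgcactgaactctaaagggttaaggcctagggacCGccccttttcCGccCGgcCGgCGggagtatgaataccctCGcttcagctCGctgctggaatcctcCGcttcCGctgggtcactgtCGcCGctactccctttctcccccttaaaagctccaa
Pou3f2: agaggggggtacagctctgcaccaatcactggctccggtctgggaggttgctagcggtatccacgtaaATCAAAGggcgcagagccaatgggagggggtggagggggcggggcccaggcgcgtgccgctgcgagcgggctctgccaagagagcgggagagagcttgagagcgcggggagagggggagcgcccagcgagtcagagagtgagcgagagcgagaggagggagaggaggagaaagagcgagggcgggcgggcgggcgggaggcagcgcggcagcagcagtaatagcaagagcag

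Between QT7 and QKO, 6 of the 22 tested genes differed. In QT7 against QKO, 3 were higher (Neurod1, Sox10 and Ncam1) and 3 lower (Nes, Pou4f2 and Gbx2), called at an adjusted p under 0.05 by edgeR's quasi-likelihood test. That is 27.3% of them, against 26.9% of all 16515 genes tested (14.8% higher and 12.1% lower). In QT7L1 against QKO, 9 were called, 3 higher (Neurod1, Sox10 and Hes5) and 6 lower (Nes, Pou4f2, Gbx2, En1, Tubb3 and Ngfr), or 40.9%, against 29.7% of all genes (15.9% higher and 13.9% lower). In QKO against WT, 7 were called, 3 higher (Pou4f2, Hes1 and Ngfr) and 4 lower (Neurod1, Sox10, Sox11 and Map2), or 31.8%, against 26.4% of all genes (11.7% higher and 14.7% lower). The shares of QT7 against QKO and QKO against WT lay near those of all genes. The median log2 fold change of the 22 genes was -0.04 in QT7 against QKO, -0.24 in QT7L1 against QKO and -0.10 in QKO against WT, against 0.05, 0.02 and -0.01 for all genes tested. Members moved both ways in each comparison, so the genes did not shift as a block. The 3 comparisons share the QKO libraries, so a low or high value there enters all of them.

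**Figure D2:**
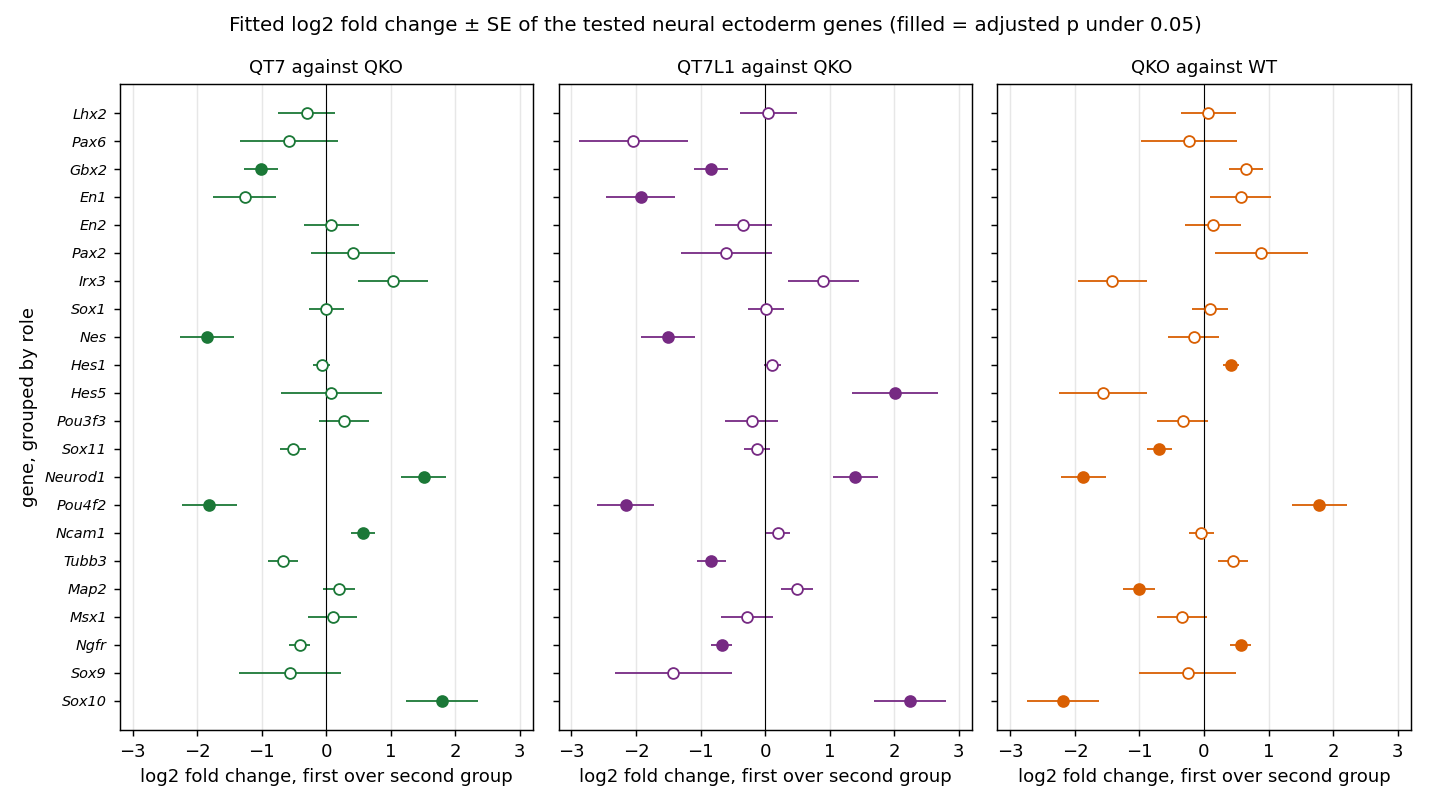
Fitted log2 fold change ± SE (horizontal axis) of the 22 tested neural ectoderm genes, grouped by role, in QT7 against QKO, QT7L1 against QKO and QKO against WT, with filled points at an adjusted p under 0.05. Neurod1 and Sox10 lie right of 0 in both rescue panels and left of 0 in the QKO panel, and Pou4f2 does the reverse.

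Both tested proneural and neuronal identity factors were called in 3 comparisons, in opposite directions. Neurod1, a basic helix-loop-helix factor that drives neurons to differentiate, had 8.22 and 15.9 CPM in QT7, 9.45 and 12.8 CPM in QT7L1, 5.28 and 3.19 CPM in QKO, and 13.7 and 17.2 CPM in WT. Both QKO libraries lay below all 6 others. Its log2 fold change was 1.51 ± 0.35 (SE) in QT7 against QKO (adjusted p = 0.0139), 1.40 ± 0.35 in QT7L1 against QKO (adjusted p = 0.0177) and -1.87 ± 0.35 in QKO against WT (adjusted p = 0.00651). The call in QT7 against QKO was lost without QKO 2 (0.107), that in QT7L1 against QKO without QKO 2 (0.125) or QT7L1 2 (0.112), and that in QKO against WT without QKO 2 (0.058) or WT 2 (0.0539). In bulk RNA, fewer cells with a transcript and less transcript per cell cannot be told apart. Neurod1 overlaps Cerkl on the same strand, and the counting of shared reads is not given in the sources used here.

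Pou4f2, a POU factor of retinal ganglion cells and sensory neurons, ran the other way. It had 12.3 and 5.34 CPM in QT7, 7.75 and 6.06 CPM in QT7L1, 23.7 and 38.0 CPM in QKO, and 11.2 and 6.71 CPM in WT. Both QKO libraries were above all 6 others, and the QT7, QT7L1 and WT ranges overlapped. The log2 fold change was -1.81 ± 0.43 in QT7 against QKO (adjusted p = 0.0192), -2.16 ± 0.44 in QT7L1 against QKO (adjusted p = 0.0101) and 1.79 ± 0.43 in QKO against WT (adjusted p = 0.0211). The first was lost without QKO 2 (0.11), the second without QKO 2 (0.061), QT7L1 1 (0.0536) or QT7L1 2 (0.0835), and the third without QKO 2 (0.118) or WT 2 (0.149). The other 4 factors of this group, Neurog1, Neurog2, Olig2 and Nkx6-1, were too low to test.

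**Figure D3:**
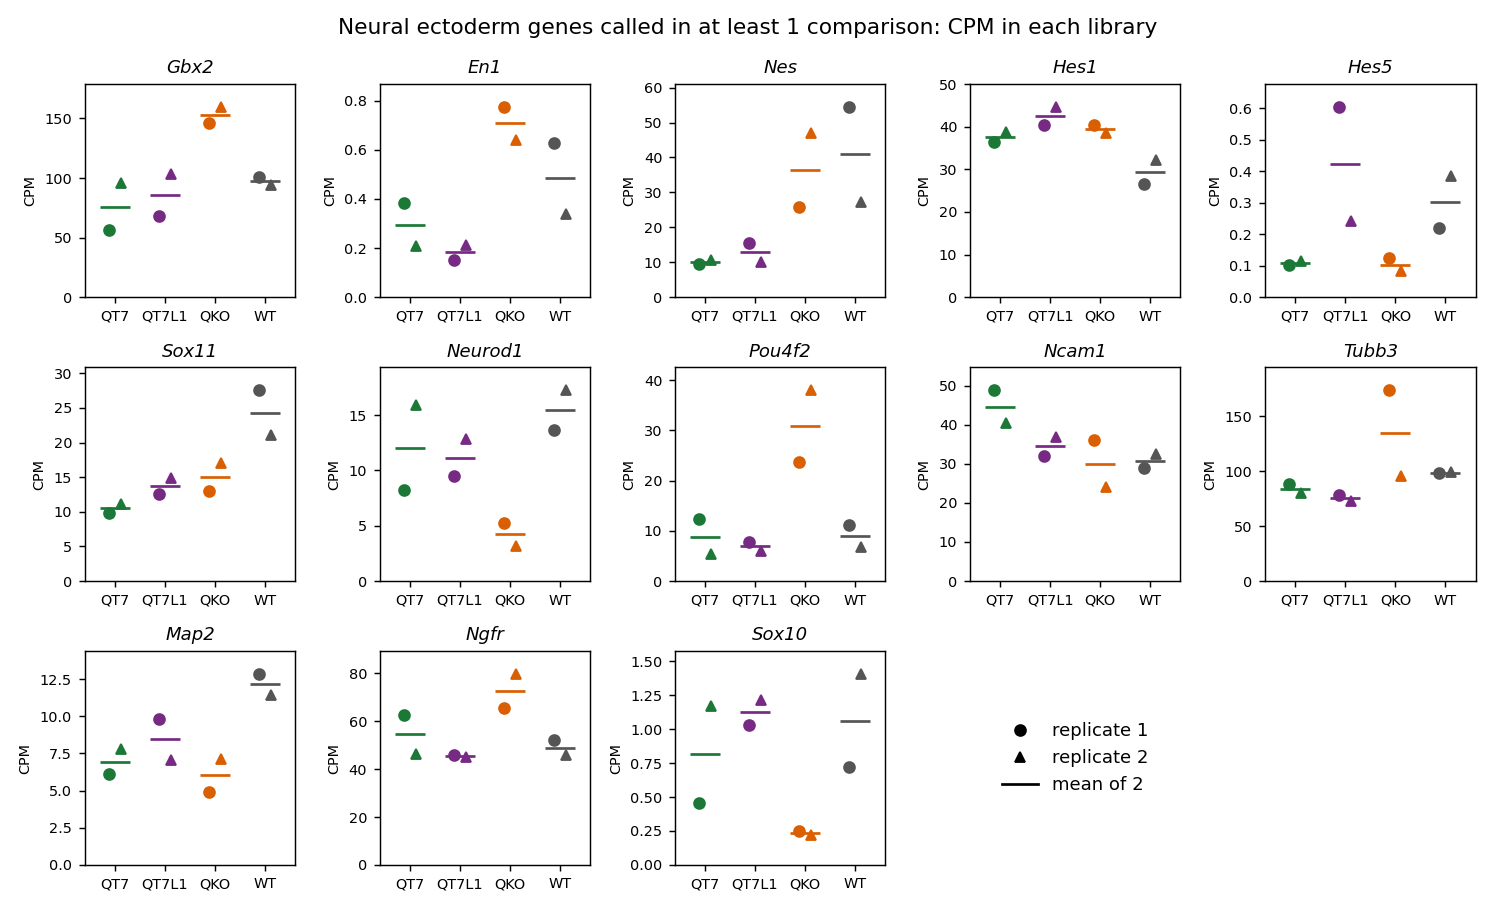
CPM of the 13 neural ectoderm genes called in at least 1 comparison, in each library (circles replicate 1, triangles replicate 2) with the mean of each group as a line, and groups along the horizontal axis. In Neurod1 and Sox10 both QKO libraries lie below all others, in Pou4f2 both lie above, and in Nes the QT7 and QT7L1 libraries lie below the rest.

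Among the dorsal, crest and glial genes, Sox10 followed Neurod1 at a far lower level. Sox10, which keeps neural crest and oligodendrocyte precursors in their lineage, had 18 and 51 counts in QT7, 34 and 40 in QT7L1, 8 and 8 in QKO, and 23 and 62 in WT. Both QKO libraries were below all others, while within QT7 the libraries differed 2.55-fold in CPM. The log2 fold change was 1.79 ± 0.56 in QT7 against QKO (adjusted p = 0.0392), 2.24 ± 0.56 in QT7L1 against QKO (adjusted p = 0.0146) and -2.18 ± 0.56 in QKO against WT (adjusted p = 0.0183). The first was lost under DESeq2 (0.0588) and without QKO 1 (0.13), QKO 2 (0.184), QT7 2 (0.256), QT7L1 1 (0.0628) or QT7L1 2 (0.063). The second was lost without QKO 1 (0.066), QKO 2 (0.0982), QT7L1 1 (0.0515) or QT7L1 2 (0.0791), and the third without QKO 1 (0.081), QKO 2 (0.116) or WT 2 (0.159).

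Neurod1, Sox10 and Pou4f2 were the 3 genes called in QKO against WT and called in the opposite direction in both QT7 and QT7L1 against QKO. In QT7 against WT, their log2 fold changes were -0.36 ± 0.33, -0.39 ± 0.48 and -0.02 ± 0.43. In QT7L1 against WT they were -0.47 ± 0.34, 0.06 ± 0.48 and -0.37 ± 0.43, and none of these 6 values passed the test (adjusted p from 0.547 to 0.99). No remaining difference from WT was detected. With SEs of this size a small one could be missed, so the levels are not shown to be equal.

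Ngfr, the receptor used to sort migrating neural crest cells, had 62.8 and 46.2 CPM in QT7, 46.1 and 45.1 CPM in QT7L1, 65.4 and 79.7 CPM in QKO, and 52.2 and 45.7 CPM in WT. QKO lay above every other library, QT7 1 only narrowly below it. Ngfr was lower in QT7L1 than in QKO by a log2 fold change of -0.67 ± 0.16 (adjusted p = 0.0113) and higher in QKO than in WT by 0.57 ± 0.16 (adjusted p = 0.0244), and in QT7 against QKO it was -0.41 ± 0.16 (adjusted p = 0.0737, and 0.0373 under DESeq2). The first call was lost without QKO 2 (0.102), QT7L1 1 (0.066) or QT7L1 2 (0.082), and the second without QKO 2 (0.19) or WT 2 (0.172). Msx1, a roof plate and crest homeobox gene, had 14 to 40 counts a library, and Sox9, a factor of crest and glial precursors, 3 to 18 counts. Neither was called in a comparison, and Sox9 differed 4.81-fold between the QT7 libraries and 3.55-fold between the WT libraries.

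The neural progenitor genes did not move together. Nes, the intermediate filament of neural stem cells, had 9.54 and 10.7 CPM in QT7, 15.5 and 10.1 CPM in QT7L1, 25.9 and 47.2 CPM in QKO, and 54.6 and 27.3 CPM in WT. All 4 rescued libraries lay below all 4 QKO and WT libraries, and QKO and WT overlapped. The log2 fold change was -1.85 ± 0.42 in QT7 against QKO (adjusted p = 0.0188), -1.51 ± 0.42 in QT7L1 against QKO (adjusted p = 0.0341) and -2.02 ± 0.42 in QT7 against WT (adjusted p = 0.047). In QT7L1 against WT it was -1.67 ± 0.42 (adjusted p = 0.141), and in QKO against WT -0.16 ± 0.40 (adjusted p = 0.798).

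The 3 Nes calls rest on few libraries. That in QT7 against QKO was lost without QKO 2 (adjusted p = 0.09), QT7 1 (0.145) or QT7 2 (0.118). That in QT7L1 against QKO was lost without QKO 2 (0.165), QT7 1 (0.0949), QT7 2 (0.094), QT7L1 1 (0.0714) or QT7L1 2 (0.174). That in QT7 against WT was lost without WT 1 (0.175), QT7 1 (0.29), QT7 2 (0.148), QT7L1 1 (0.0729) or QT7L1 2 (0.0737). Fibroblasts can also make Nes. Their 13 markers other than Vim and Fn1 summed to 51.4 and 83.8 CPM in QT7, 47.8 and 60.4 CPM in QT7L1, 175.6 and 54.0 CPM in QKO, and 136.5 and 88.7 CPM in WT. Within QKO, Nes was higher in replicate 2 and these markers in replicate 1, and within WT both were higher in replicate 1. The part of such cells in the Nes result was not tested.

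Sox11, a factor that activates neuronal genes in precursors, had 9.85 and 11.1 CPM in QT7, 12.6 and 14.9 CPM in QT7L1, 12.97 and 17.1 CPM in QKO, and 27.6 and 21.04 CPM in WT. Both WT libraries lay above all 6 mutant libraries. Sox11 was lower in QT7 than in WT (log2 fold change -1.21 ± 0.20, adjusted p = 0.0118) and lower in QKO than in WT (-0.69 ± 0.19, adjusted p = 0.0265), while QT7L1 against WT gave -0.82 ± 0.20 (adjusted p = 0.0946). The first call was lost without WT 1 (0.112), and the second without WT 1 (0.167), QKO 1 (0.172) or QKO 2 (0.0526). edgeR called neither rescue comparison, at -0.52 ± 0.20 in QT7 against QKO (adjusted p = 0.0752, and 0.0411 under DESeq2) and -0.13 ± 0.20 in QT7L1 against QKO (adjusted p = 0.65). By edgeR the unadjusted p of Sox11 was 0.00167 in QT7L1 against WT, not called, and 0.00491 in QKO against WT, called. The adjustment is made within each comparison, so this pair does not show that QT7L1 and QKO differ.

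The Notch effectors Hes1 and Hes5 differed in both level and pattern. Hes1 had 36.5 and 38.7 CPM in QT7, 40.4 and 44.7 CPM in QT7L1, 40.5 and 38.4 CPM in QKO, and 26.5 and 32.3 CPM in WT. All 6 mutant libraries lay above both WT libraries. Hes1 was higher in QKO than in WT by a log2 fold change of 0.42 ± 0.13 (adjusted p = 0.036). QT7 against WT gave 0.35 ± 0.13 (adjusted p = 0.15) and QT7L1 against WT 0.53 ± 0.13 (adjusted p = 0.0983). By edgeR the unadjusted p was 0.00191 in QT7L1 against WT, not called, and 0.00791 in QKO against WT, as the adjustment is made within each comparison. The call in QKO was lost without WT 1 (0.21), WT 2 (0.052), QKO 1 (0.163), QKO 2 (0.118), QT7L1 1 (0.0546) or QT7L1 2 (0.0549).

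Hes5, which restrains neuronal differentiation in the neural tube, had 4 and 5 counts in QT7, 20 and 8 in QT7L1, 4 and 3 in QKO, and 7 and 17 in WT. It was higher in QT7L1 than in QKO by 2.01 ± 0.67 on the log2 scale (adjusted p = 0.0443). That call was lost under DESeq2 (0.205) and without QT7L1 1 (0.352), QT7L1 2 (0.0555), QKO 1 (0.126), QKO 2 (0.236), WT 1 (0.0624) or WT 2 (0.0655). In QT7 against QKO the value was 0.08 ± 0.78 (adjusted p = 0.955), and the direct comparison of QT7 with QT7L1 gave -1.93 ± 0.64 (adjusted p = 0.317). Sox1 averaged 6.62 ± 2.73 CPM in QT7, 6.73 ± 0.606 CPM in QT7L1, 6.63 ± 0.942 CPM in QKO and 6.196 ± 0.0865 CPM in WT (SD, n = 2 each). No comparison of Sox1 was called, with log2 fold changes of -0.02 to 0.12 and SEs of 0.27 to 0.28. Pou3f3, a POU factor of cortical progenitors, had 12 to 32 counts a library and was not called either.

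Among the midbrain, hindbrain and regional genes, Gbx2, which sets the border between midbrain and hindbrain, carried by far the most counts. Gbx2 had 56.1 and 95.5 CPM in QT7, 68.5 and 103 CPM in QT7L1, 146 and 160 CPM in QKO, and 100.5 and 94.1 CPM in WT. Both QKO libraries lay above all others, and both rescued lines overlapped WT. It was lower in QT7 than in QKO (log2 fold change -1.01 ± 0.26, adjusted p = 0.0273) and lower in QT7L1 than in QKO (-0.84 ± 0.26, adjusted p = 0.0482), and QKO against WT gave 0.65 ± 0.26 (adjusted p = 0.106, and 0.0106 under DESeq2). The first call was lost without WT 1 (0.0613), WT 2 (0.0596), QKO 1 (0.0909), QKO 2 (0.141) or QT7 1 (0.0504). The second was lost without WT 1 (0.0952), WT 2 (0.0928), QKO 1 (0.131), QKO 2 (0.204) or QT7L1 1 (0.215).

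En1, a homeobox gene of the midbrain and hindbrain, was near the limit of detection. It had 15 and 9 counts in QT7, 5 and 7 in QT7L1, 25 and 23 in QKO, and 20 and 15 in WT. It was lower in QT7L1 than in QKO by a log2 fold change of -1.93 ± 0.54 (adjusted p = 0.0228), and QT7 against QKO gave -1.26 ± 0.49 (adjusted p = 0.0818). The call was lost under DESeq2 (0.0908) and without QKO 1 (0.105), QKO 2 (0.081), QT7L1 1 (0.145) or QT7L1 2 (0.0956). Its paralogue En2 was more abundant, at 5.05 and 13.2 CPM in QT7, 5.03 and 8.65 CPM in QT7L1, 10.2 and 7.10 CPM in QKO, and 7.73 and 7.96 CPM in WT. The En2 ranges overlapped in every comparison and none was called. Irx3, a homeobox gene of the caudal neural plate, had 20 and 30 counts in QT7, 27 and 9 in QT7L1, 8 and 12 in QKO, and 24 and 36 in WT. QKO against WT gave -1.42 ± 0.53 for Irx3 (adjusted p = 0.0734, and 0.0284 in the fit with no filter on low counts). Pax2, a factor of the midbrain and hindbrain border and the optic stalk, had 5 to 34 counts a library and was not called, with a 3.43-fold difference between the QT7 libraries.

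The 3 tested neuronal structure and adhesion genes were each called once, in different comparisons. Tubb3 had 88.1 and 80.0 CPM in QT7, 78.4 and 72.4 CPM in QT7L1, 173 and 95.1 CPM in QKO, and 98.0 and 98.9 CPM in WT. QKO 1 stood apart at 1.82 times QKO 2, and QKO 2 lay below both WT libraries. Tubb3 was lower in QT7L1 than in QKO by a log2 fold change of -0.83 ± 0.23 (adjusted p = 0.0312), and QT7 against QKO gave -0.67 ± 0.23 (adjusted p = 0.0655, and 0.004 under DESeq2). The call was lost without WT 1 (0.064), WT 2 (0.0617), QKO 1 (0.11), QT7 1 (0.0579), QT7 2 (0.0572), QT7L1 1 (0.118) or QT7L1 2 (0.167), and without QKO 1 the log2 fold change was -0.33. The collagens Col1a1, Col1a2 and Col3a1, made by fibroblasts, summed to 86.9 CPM in QKO 1 and 9.95 CPM in QKO 2. In WT 1 and WT 2, which had nearly equal Tubb3, they summed to 65.8 and 30.6 CPM. Of the other fibroblast markers, Acta2, Tagln and S100a4 were also higher in QKO 1, and Vim, Pdgfrb and Twist1 were higher in QKO 2. The part of fibroblasts in the Tubb3 level was not tested. Tubb3 also lies within Gm20388, an overlapping annotation on the same strand, so its counts are uncertain.

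Ncam1, a cell adhesion molecule of neural cells, had 48.8 and 40.5 CPM in QT7, 32.0 and 37.0 CPM in QT7L1, 36.1 and 24.1 CPM in QKO, and 29.0 and 32.7 CPM in WT. Both QT7 libraries lay above all 6 others. It was higher in QT7 than in QKO by a log2 fold change of 0.57 ± 0.19 (adjusted p = 0.048), and QT7 against WT gave 0.53 ± 0.19 (adjusted p = 0.139). The call was lost with RLE scaling (0.0561) and without QKO 2 (0.309), QT7 1 (0.167), QT7L1 1 (0.0697), QT7L1 2 (0.0702), WT 1 (0.0654) or WT 2 (0.0648).

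Map2, a microtubule protein of dendrites, had 6.10 and 7.77 CPM in QT7, 9.84 and 7.07 CPM in QT7L1, 4.90 and 7.12 CPM in QKO, and 12.8 and 11.45 CPM in WT. Both WT libraries lay above all 6 mutant libraries. It was lower in QKO than in WT by a log2 fold change of -1.01 ± 0.25 (adjusted p = 0.0154), and QT7 against WT gave -0.81 ± 0.25 (adjusted p = 0.092, and 0.0287 under DESeq2). The call was lost without WT 1 (0.0673), WT 2 (0.0633) or QKO 1 (0.114).

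In the anterior neural plate, forebrain and eye group the main edgeR fit called no gene. Only Lhx2 and Pax6, both needed for the eye, could be tested among its 5 genes. Lhx2 had 28 and 18 counts in QT7, 29 and 18 in QT7L1, 25 and 22 in QKO, and 18 and 33 in WT, overlapping in every comparison. Pax6 had 82 and 13 counts in QT7, 19 and 9 in QT7L1, 36 and 86 in QKO, and 78 and 75 in WT. Both QT7L1 libraries lay below both QKO and both WT libraries, and the QT7 clones differed 7.0-fold in CPM. QT7L1 against QKO gave -2.04 ± 0.85 (adjusted p = 0.108) and QT7L1 against WT -2.27 ± 0.85 (adjusted p = 0.26) for Pax6. DESeq2 called the first (-2.06, adjusted p = 0.0264). So did edgeR without QT7 1 (0.00782) or QT7 2 (0.00778), and these fits also called Pax6 lower in QT7L1 than in WT (0.0321 and 0.0325). With no filter on low counts, edgeR called Pax6 lower in QT7L1 than in QKO (-2.03, adjusted p = 1.32e-05) and than in WT (-2.26, adjusted p = 3.77e-06). It also called Pax6 higher in QT7 than in QT7L1 (1.48, adjusted p = 0.0133). QT7 1 (2.09 CPM) lay within the range of QKO and WT, and QT7 2 (0.299 CPM) within that of QT7L1. With the filter, edgeR calls of Pax6 in QT7 depended on which clone was left out. Without QT7 1, Pax6 was called lower in QT7 than in QKO (log2 fold change -2.53, adjusted p = 0.0163) and lower than in WT (-2.76, adjusted p = 0.0477). Without QT7 2, it was called higher in QT7 than in QT7L1 (2.29, adjusted p = 0.0251).

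Set against WT, the rescued lines showed few calls among these genes. In QT7 against WT, 2 of 22 were called, Nes and Sox11, both lower, or 9.09%, against 4.62% of all genes (2.37% higher and 2.25% lower). In QT7L1 against WT the main edgeR fit called none, against 0.745% of all genes (0.297% higher and 0.448% lower). In that fit 5 had an unadjusted p under 0.05, as had 2536 of the 16515 genes. DESeq2 called 3 there, Hes1 higher and Nes and Sox11 lower, and 3.44% of all genes. Between QT7 and QT7L1 none was called by the main edgeR fit or DESeq2, against 0.00606% of all genes in that edgeR fit. In the same fit 1 (Hes5) had an unadjusted p under 0.05, as had 1830 of the 16515 genes. DESeq2 called 1.43% of all genes there. The median log2 fold change was -0.30 in QT7 against WT, -0.38 in QT7L1 against WT and 0.15 in QT7 against QT7L1, against 0.01, 0.00 and 0.00 for all genes.

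In the authors' deposited table, 7 of the neural ectoderm genes were called in QKO against WT, and 6 of these were called in the same direction by edgeR. The authors' deposited table called 6 in QT7 against QKO (5 shared) and 7 in QT7L1 against QKO (7 shared). Against WT, the authors' deposited table called 3 in QT7 (2 shared) and 3 in QT7L1 (0 shared), and between QT7 and QT7L1 it called 0. The share of all genes called in the deposited tables was not computed, so these counts have no background to be read against.

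Calls depended on single libraries. None of the 24 gene calls stayed under the threshold through all 8 fits that left out 1 library, while no log2 fold change changed sign. Over those fits and the other alternatives, the adjusted p of the called genes ran from 1.1e-26 to 0.352. Without QKO 2, 4 of the 24 calls held, those of Tubb3 in QT7L1 against QKO (0.00978), Map2 in QKO against WT (0.0376), and Nes (0.0418) and Sox11 (0.0184) in QT7 against WT. None of the 6 calls in QT7 against QKO held. That fit also made 2 calls that rest on QKO 1 alone for their QKO level, Tubb3 lower in QT7 than in QKO (-1.05, adjusted p = 0.0149) and higher in QKO than in WT (0.81, adjusted p = 0.0121). Over all genes, the share called without QKO 2 was 8.39% in QT7 against QKO, 9.98% in QT7L1 against QKO and 7.45% in QKO against WT, against 26.9%, 29.7% and 26.4% with all libraries. Most calls were also lost in QT7L1 against QKO without QKO 1, QT7L1 1 or QT7L1 2, and in QKO against WT without QKO 1 or WT 2. The share of all genes called fell in those fits too, so the loss was not particular to these genes.

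**Figure D4:**
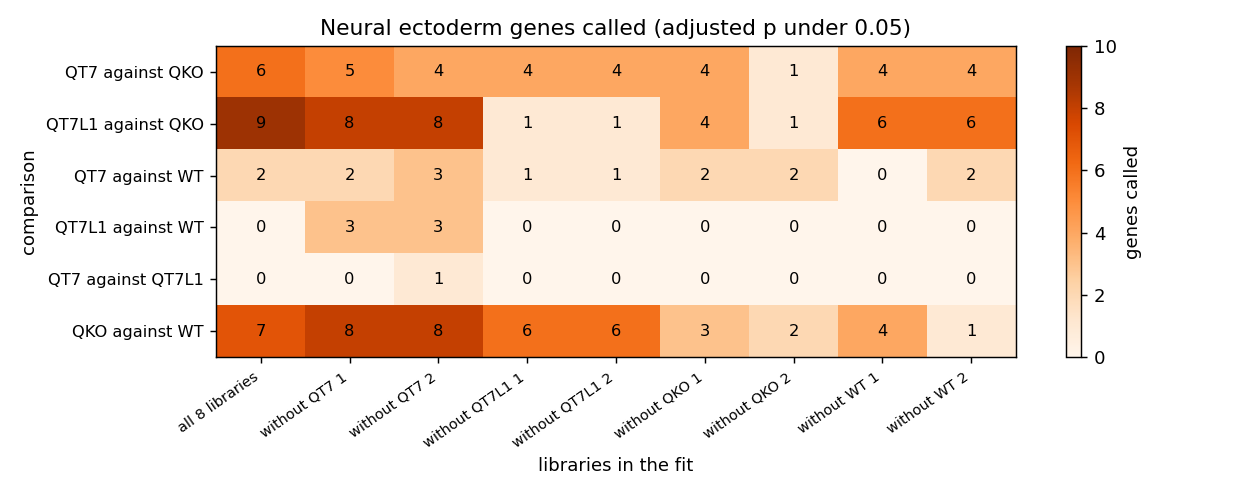
Number of neural ectoderm genes called (colour and digits) in each comparison (rows) when all 8 libraries were fitted and when 1 library was left out (columns). Fewer genes were called without QKO 2 in the 3 comparisons that involve QKO, against 6, 9 and 7 with all libraries. Some of the calls without QKO 2 were Tubb3 calls that the main edgeR fit did not make. The share of all genes called also fell there, to 8.39%, 9.98% and 7.45%.

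Related genes were read as lists, and their counts stand against the shares of all genes called. These were 26.9% in QT7 against QKO, 29.7% in QT7L1 against QKO and 26.4% in QKO against WT. In QT7 against WT, QT7L1 against WT and QT7 against QT7L1 they were 4.62%, 0.745% and 0.00606%. Of 21 Notch pathway genes 19 could be tested. The Notch effectors Hes1 and Hes5, described above, are not in this list. In QKO against WT edgeR called Hes1 higher (0.42 ± 0.13, adjusted p = 0.036), against the direction of most of the list. Hes5 was lower there and not called (-1.56 ± 0.68, adjusted p = 0.116). In QT7 against QKO 6 were higher and 2 lower (median log2 fold change 0.39, against 0.05 for all genes), and in QT7L1 against QKO 8 were higher and 2 lower (0.58, against 0.02). In QKO against WT 2 were higher and 12 lower (-0.77, against -0.01). In QT7 against WT 1 was higher (Notch4), and in QT7L1 against WT and QT7 against QT7L1 0 were called. Notch3, a receptor, had 124.8 and 126.2 CPM in QT7, 87.5 and 118 CPM in QT7L1, 41.6 and 46.9 CPM in QKO, and 89.3 and 116.8 CPM in WT. Both QKO libraries were below all others. Its log2 fold change was 1.5 ± 0.17 in QT7 against QKO (adjusted p = 0.000929), 1.21 ± 0.17 in QT7L1 against QKO (adjusted p = 0.00136) and -1.22 ± 0.16 in QKO against WT (adjusted p = 0.00158). The ubiquitin ligase gene Dtx1 gave 1.34 ± 0.21, 1.62 ± 0.22 and -2.09 ± 0.22, and the ligand gene Jag2 1.08 ± 0.25, 1.39 ± 0.25 and -1.97 ± 0.26 in the same 3 comparisons, all called. The Notch3 and Dtx1 calls held in all 8 fits that left out 1 library, as did that of Jag2 in QKO against WT, while Jag2 was lost without QKO 2 in QT7 against QKO (0.114) and in QT7L1 against QKO (0.0514). Rbpj, the transcription factor of the pathway, was called the other way, at -0.41 ± 0.11, -0.58 ± 0.11 and 0.49 ± 0.11. The Rbpj call in QT7 against QKO was lost without QKO 1 (0.0652), QKO 2 (0.11) or QT7 2 (0.0876), and that in QKO against WT without QKO 2 (0.0774) or WT 2 (0.0798). Without QKO 2 the Notch list had 2 higher and 0 lower in QT7 against QKO, 2 higher and 2 lower in QT7L1 against QKO, and 0 higher and 4 lower in QKO against WT, and without WT 2 the last had 1 higher and 3 lower.

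**Figure D5:**
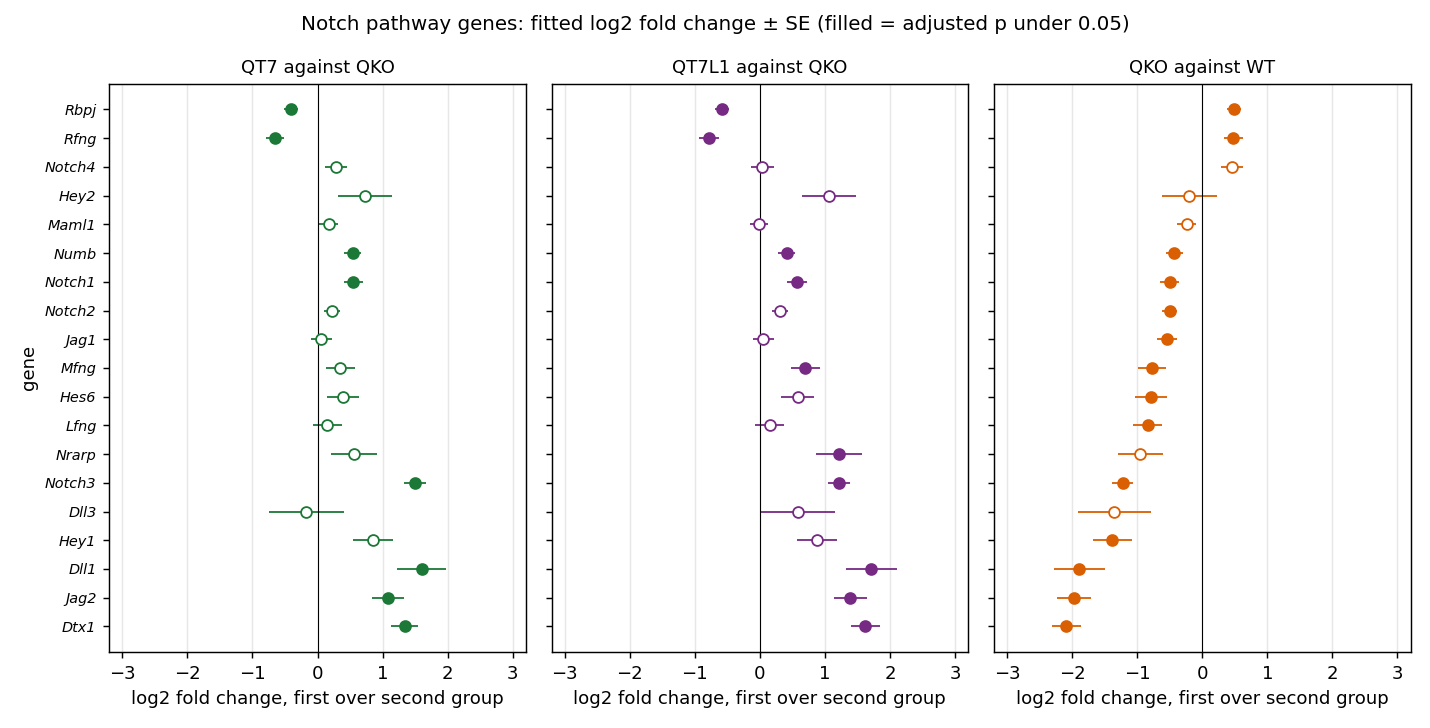
Fitted log2 fold change ± SE (horizontal axis) of the 19 tested Notch pathway genes in QT7 against QKO, QT7L1 against QKO and QKO against WT, filled at an adjusted p under 0.05. In QKO against WT 12 genes lie left of 0 and are filled, and Rbpj and Rfng lie right of 0. Hes1 and Hes5 are not in this list.

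Of 28 other neural plate and progenitor regulators 20 were tested. In QT7 against QKO 3 were higher and 2 lower (median log2 fold change 0.33), where 26.9% of all genes were called. In QT7L1 against QKO 1 was higher and 3 lower (0.09), where 29.7% of all genes were called. In QKO against WT 1 was higher and 6 lower (-0.56), where 26.4% of all genes were called. In QT7 against WT 2 were lower, and in the other comparisons 0 were called. Msi1, an RNA-binding protein of neural stem cells, gave 1.39 ± 0.18 in QT7 against QKO (adjusted p = 0.00127), 1.62 ± 0.18 in QT7L1 against QKO (adjusted p = 0.000802) and -1.32 ± 0.18 in QKO against WT (adjusted p = 0.0014), and these calls held with each library left out. Sox3, a relative of Sox1 and Sox2, ran the other way at -1.17 ± 0.28, -1.22 ± 0.28 and 1.22 ± 0.28, all called. The Sox3 calls were lost without QKO 2 (0.105, 0.0875 and 0.0985), the second also without QT7L1 1 (0.0722) or QT7L1 2 (0.0712) and the third without WT 2 (0.102). Sox2 was called in QT7 against QKO with all libraries but in none of the 8 fits that left 1 out. Without QKO 2, Msi1 alone of this list stayed called in QT7 against QKO and in QT7L1 against QKO, and Msi1 and Prom1 did in QKO against WT. The calls held with 1 library left out numbered 1 to 4 of 5, 1 to 4 of 4 and 2 to 7 of 7 in these comparisons. Among 12 tested of 22 other proneural and neuronal factors, Rest, which represses neuronal genes, was lower in QT7 than in QKO (-0.43 ± 0.09, adjusted p = 0.00741) and lower in QT7L1 than in QKO (-0.30 ± 0.09, adjusted p = 0.0291). The first was lost without QKO 2 (0.0622), the second without QKO 1 (0.0847), QKO 2 (0.164), QT7L1 1 (0.0962) or QT7L1 2 (0.178). In that list 1 gene was called in QT7 against QKO, 2 in QT7L1 against QKO, 1 in QKO against WT, 2 in QT7 against WT and 1 in QT7L1 against WT, all lower. Without QKO 2 none of the calls in the 3 comparisons with QKO held, and without WT 1 none of those against WT did. Its median was -0.17 in QT7 against QKO, -0.37 in QT7L1 against QKO and -0.42 in QKO against WT.

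Of 20 neuronal structure and synapse genes 19 were tested. In QT7 against QKO 1 was lower (Ina, a neurofilament relative, -1.35 ± 0.26; median of the list 0.20), in QT7L1 against QKO 1 was higher and 4 lower (-0.21), and in QKO against WT 4 were higher and 1 lower (-0.07). In QT7 against WT 3 were higher and 1 lower, and in QT7L1 against WT 1 was higher and 1 lower. With 1 library left out, 1 of the 5 calls in QT7L1 against QKO held without QKO 2, QT7L1 1 or QT7L1 2, and 3 of the 5 in QKO against WT without QKO 2 or WT 2. Without WT 1 none of the calls of QT7 or QT7L1 against WT held. Of 14 neural crest regulators 10 were tested, with medians of -0.13 in QT7 against QKO, -0.49 in QT7L1 against QKO and 0.27 in QKO against WT. Foxd3, which is also needed in ES cells, was lower in QT7 than in QKO (-1.17 ± 0.29, adjusted p = 0.0193), lower in QT7L1 than in QKO (-1.60 ± 0.29, adjusted p = 0.00577) and higher in QKO than in WT (1.83 ± 0.29, adjusted p = 0.0043). The first was lost without QKO 1 (0.0942), QKO 2 (0.0873) or QT7 2 (0.0923), and the second without QT7L1 2 (0.0571). Sox10, described above, ran against Foxd3 in all 3. The only other crest regulator called was Tfap2a, higher in QKO than in WT (2.42 ± 0.63, adjusted p = 0.0223) and in QT7 than in WT (2.66 ± 0.62, adjusted p = 0.0466), with adjusted p up to 0.145 and 0.182 where 1 library was left out. Of 10 glial genes 8 were tested, with 2 higher in each of QT7 and QT7L1 against QKO (medians 0.62 and 0.52) and 1 higher and 1 lower in QKO against WT (-0.47). Mbp, a myelin protein gene also transcribed outside glia, gave 1.69 ± 0.37 in QT7 against QKO (adjusted p = 0.00906), 2.13 ± 0.37 in QT7L1 against QKO (adjusted p = 0.00301) and -2.31 ± 0.37 in QKO against WT (adjusted p = 0.00259), the first lost without QKO 2 (0.0864). The defining glial genes Aqp4 and S100b were at 0 in all libraries.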

How the data were processed

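Polyadenylated RNA of 8 libraries was sequenced, each from 250 ng of RNA with a stranded kit per the labels' protocols. Per the submitters' processing notes, bcl2fastq 1.8.4, STAR 2.4.0f1, HTSeq and DESeq2 (given as 2.1.8.3) were used with mm10 (GRCm38). How the counter treated strand and multiply matching reads is not given in the sources used here. Per library, the deposited files hold whole-number counts per Ensembl gene, with no summary lines (0). Tables of group comparisons, also deposited, give the authors' mean normalised signal, a log2 fold change and its standard error, a test score and p-values. The authors' p-values were used only to list their calls.

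These counts went into edgeR 4.0.16 under R 4.3.3 (filterByExpr with a minimum count of 10, TMM scaling). A robust quasi-likelihood fit of 4 group means to the 8 libraries left 4 residual degrees of freedom. The 6 comparisons used 2-sided tests, adjusted by Benjamini-Hochberg over 16515 genes with calls at an adjusted p under 0.05. A positive log2 fold change means higher in the group named first. The standard error (SE) is the absolute log2 fold change over the square root of F. CPM were TMM-scaled. The libraries are clones or, for WT, biological replicates per the labels, so p-values measure the spread between these few libraries. Coordinates and exon lengths came from GENCODE M21 on GRCm38.

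Members and lists were chosen with earlier results of these data known. All members are given, with values per library for those called, and from other lists up to 3 called genes with the smallest adjusted p, except Rbpj, named after its values were seen. Limits on counts of 0 (3 counts) cover counting error only. The method was tested on simulated data. Alternatives were DESeq2 1.42.0, its size factors (RLE) within edgeR, no filter, a replicate block and each library left out. Replicate numbers were not treated as pairs.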

Additional observations from a re-analysis of the deposited data

How the results depend on the processing

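No gene call changed sign under any of the 13 alternatives run. Of the 24 gene calls, 23 held with RLE scaling, 24 with no filter, 21 under DESeq2 and 21 with a replicate block, and levels moved by less than 1 SD with RLE scaling in 124 of 124. In QT7 against WT, 2 genes were called in the main analysis, 4 with no filter and 1 with the replicate block. In QT7L1 against WT, 0 became 5 with no filter and 3 under DESeq2. In QT7 against QT7L1, 0 became 1 (Pax6) with no filter. Over all genes, the share called in QT7L1 against WT was 4.82% with no filter and 3.44% under DESeq2, against 0.745%, and with no filter it was 8.5% in QT7 against WT and 3.98% in QT7 against QT7L1. The cause was not tested. Adjusted p-values of the called genes reached as low as 1.1e-26 with no filter, for Nes in QT7 against WT, against 0.047 with it. Leaving out 1 library changed the number of these genes called in every comparison, and the share of all genes called changed too. These numbers are therefore not a result about these genes. Where an arm held 1 library, it was assumed to vary like the other groups.

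No replicate block was in the main analysis; it lost the calls of Hes5 (0.0552) and Nes (0.0753) in QT7L1 against QKO and of Nes in QT7 against WT (0.104). The replicate block gave 7 genes in QT7 against QKO, 7 in QT7L1 against QKO, 8 in QKO against WT and 0 in QT7L1 against WT and QT7 against QT7L1. Over all genes it called 26.6%, 29.4%, 26.1%, 1.02% and 0.0121% in these comparisons, and 4.85% in QT7 against WT. Replicate differences of QKO correlated at -0.205 with those of QT7 and -0.168 with those of QT7L1, over genes. With the QKO numbers crossed (chosen after seeing the data), the block gave 7 genes in QT7 against QKO, 10 in QT7L1 against QKO and 7 in QKO against WT. It gave 2 in QT7 against WT, 3 in QT7L1 against WT and 0 in QT7 against QT7L1. The shares of all genes called were then 31.1%, 34.1%, 30.9%, 7.25%, 2.43% and 0.339%. Counts of 3 to 62 a library limit En1, Hes5, Sox10, Irx3, Pax2, Msx1 and Sox9, and 2 libraries a group limit all genes.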
